A study of Zea mays with 3 samples.

Results

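Among the transcripts detected in Urea+NBPT roots, 101 had a level in replicate 2 that was over 4-fold above the mean of replicates 1 and 3. They were chosen by a rule on the measured values. The log2 intensities of all probes of a transcript were averaged in each array, and a transcript was detected where this level exceeded, in each of the 3 arrays, the 95th percentile of that array's random probes, which serve as controls. A detected transcript entered the set when replicate 2 exceeded the mean of replicates 1 and 3 by more than 2 on the log2 scale. The rule retained 101 of 37099 detected transcripts, which came from 100 genes, and the array carries 59756 transcripts in all. Every level and difference of these transcripts between replicate 2 and the others is therefore a value that the set was selected on, and is given as a description with no test.

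The study followed maize seedlings (cv. PR33T56, called a hybrid in the sample labels and an inbred line in the methods) whose roots had been in a nutrient solution with 0.5 mM urea and 0.897 μM NBPT for 8 h. NBPT is an inhibitor of urease, the enzyme that splits urea into ammonia and carbon dioxide. Roots of 6 plants, 5 days old when the solution was applied, formed 1 pool for each replicate, and the 3 replicates came from independent experiments. The 3 arrays of this treatment lie on 1 slide, arrays of other treatments were not analysed here, and no condition was compared with another.

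Biological replicates of a root pool share the treatment and differ in plants, handling, extraction and hybridization. An oligonucleotide array reads a transcript through a few probes, each starting at its own position in the RNA, and some probes lie close together. A transcript can thus differ in a single probe or in all of them. Many maize genes have several predicted transcripts that share exons, and some early gene predictions covered only a piece of a longer gene, so that neighbouring predictions were later joined into one. A probe reports the exon or piece it lies in, and its brightness also depends on how strongly it binds, so levels of different transcripts are not a scale of abundance.

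The thresholds of detection were 8.22 in replicate 2, against 8.15 in replicate 1 and 8.16 in replicate 3 (log2 intensity). At these thresholds 62.1% of the transcripts on the array were detected. Ranked by intensity, probes of equal rank differed by no more than 0.183% between arrays, and the median intensity was 550 in each array. Of the 5 transcripts of root markers, those of a nicotianamine synthase, RTCS and RTH3, 4 were detected, and the mean levels of the 5 ranged from 8.14 to 12.75. Of marker transcripts of other organs, 7 of 28 were detected for leaf, 3 of 30 for endosperm and 2 of 8 for pollen. Their highest mean levels were 10.85 for leaf, 10.16 for endosperm and 9.72 for pollen. None of the marker transcripts belonged to the set. As the set is 0.272% of detected transcripts, its absence from so few markers is not a result about tissue. Over all marker transcripts replicate 2 lay between -0.87 and 0.68 from the mean of the others.

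Replicate 2 had more large differences upward than downward, with 700 detected transcripts over 1 higher than the average of replicates 1 and 3 and 116 over 1 lower. It exceeded the mean of the others by more than 2 in 101 detected transcripts, or 0.272%, and fell short of it by more than 2 in 1 transcript, or 0.0027%. Replicate 1 exceeded the mean of the others in this way in 4 transcripts, or 0.0108%, and fell short of it in 6, or 0.0162%. For replicate 3 these counts were 12, or 0.0323%, above and 7, or 0.0189%, below. Distances under 2 were counted as well. Replicate 2 lay more than 1 above in 700 transcripts, against 68 for replicate 1 and 123 for replicate 3, and more than 1.5 above in 262 transcripts, against 8 for replicate 1 and 26 for replicate 3. At a distance of 0.5 the counts were higher for replicate 2 in both directions, with 2734 above and 2675 below, against 1645 above and 1799 below for replicate 1 and 1527 above and 1731 below for replicate 3. At distances of 1 and more, replicate 2 had the highest counts above. Its median difference was -0.04.

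**Figure D1:**
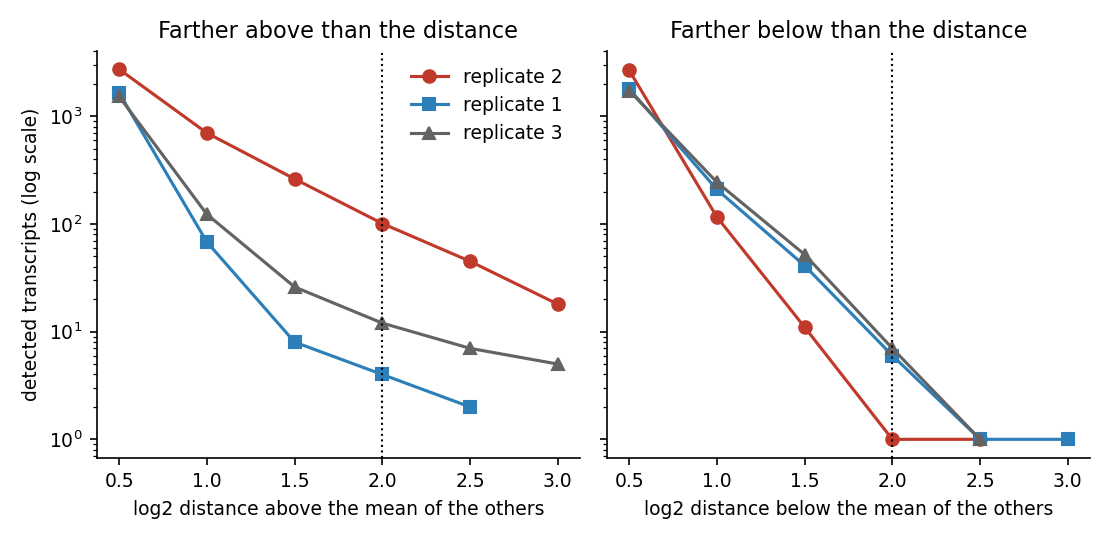
Number of detected transcripts (log axis) in which an array lay farther above (left panel) or below (right panel) the mean of the other 2 arrays than the log2 distance on the horizontal axis, for replicates 2, 1 and 3; counts of 0 are not drawn and the dotted line is the distance of 2. Above that line stand 101 transcripts for replicate 2, 4 for replicate 1 and 12 for replicate 3.

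The single transcript on the opposite side was GRMZM2G386674_T01. It had 9.70 in replicate 2, against 12.22 in replicate 1 and 12.19 in replicate 3. The control probes showed no such excess in replicate 2. Of 1663 random control probes, which are of random sequence, 4 were over 2 higher in replicate 2 than the mean of the other arrays, 2 were so in replicate 1 and 6 in replicate 3. Without the requirement of detection, replicate 2 lay more than 2 above the others in 320 transcripts. The 219 that were not detected comprised 212 that exceeded the threshold in replicate 2, and in 180 of them replicate 2 was the only array above its threshold.

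Within the set the differences ranged from 2.0 to 4.47 with a median of 2.37, and the median of all detected transcripts was -0.04. Differences over 4 were found in 2 transcripts, those between 3 and 4 in 16, between 2.5 and 3 in 27, between 2.25 and 2.5 in 20 and between 2 and 2.25 in 36. The median level was 11.98 in replicate 2, against 9.47 in replicate 1 and 9.22 in replicate 3. Levels spanned 10.34 to 14.97 in replicate 2, against 8.25 to 12.58 in replicate 1 and 8.17 to 12.82 in replicate 3. Replicate 2 was the highest array in all 101 transcripts, by at least 1.68 over the higher of the others. Fewer cells that make a transcript and less RNA per cell cannot be told apart in pooled roots, and with 1 pool on each array the plants, the RNA and the hybridization cannot be told apart either.

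**Figure D2:**
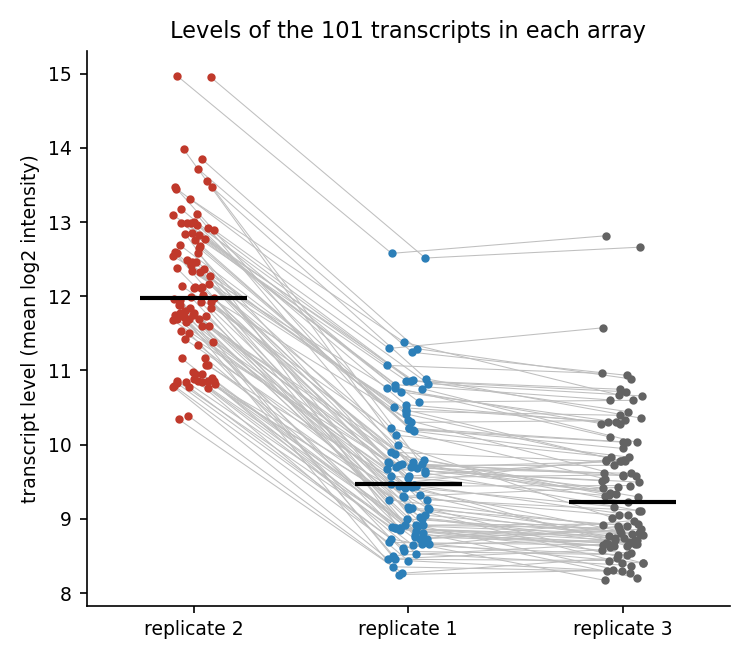
Level of each of the 101 transcripts (mean log2 intensity of its probes) in replicates 2, 1 and 3, with a thin line joining the values of 1 transcript and a bar at the median. The medians are 11.98, 9.47 and 9.22, and replicate 2 lies at the top of every line.

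Replicates 1 and 3 lay close to each other. Their absolute difference had a median of 0.24 and a maximum of 0.98, and the median over detected transcripts was 0.17. The sign of this difference, which the rule did not use, was uneven. Replicate 1 exceeded replicate 3 in 81 of the 101 transcripts, or 80.2%, and in 53.6% of detected transcripts. The median of replicate 1 minus replicate 3 was 0.20 in the set and 0.02 over detected transcripts. It was over 0.5 in 20 transcripts of the set, or 19.8%, and in 4.28% of detected transcripts. It was under -0.5 in 0 transcripts of the set and in 4.79% of detected transcripts. In most of these transcripts the arrays therefore followed the order replicate 2, replicate 1, replicate 3.

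The transcripts were weak outside replicate 2. The mean of replicates 1 and 3 had a median of 9.45 in the set and 10.65 over detected transcripts, and 89 of the 101 lay below 10.65. When detected transcripts were divided by this mean into 5 groups of equal size, the groups held 47, 32, 19, 1 and 2 transcripts of the set from the weakest to the strongest. The members in the strongest group were GRMZM2G470035_T01 and GRMZM5G884912_T01, for which the tables used here hold no gene name. GRMZM2G470035_T01 had 14.95 in replicate 2, against 12.52 in replicate 1 and 12.66 in replicate 3. GRMZM5G884912_T01 had 14.97 in replicate 2, against 12.58 in replicate 1 and 12.82 in replicate 3. The mean of replicates 1 and 3 enters the rule, both through detection and through the difference, so the low levels are a description of what the rule found.

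The set was read by 224 probes. There were 2 probes for 79 transcripts and 3 probes for 22, which is 78.2% and 21.8%, and the shares over detected transcripts were 71.3% and 28.7%. Every probe lay more than 1 above the other arrays in 79 transcripts, and more than 2 above in 42. In the remaining 22 transcripts at least 1 probe lay at or under 1, and in 12 of these the lowest probe lay at or under 0. Over all detected transcripts, every probe lay more than 1 above in 327, or 0.881%, and more than 2 above in 42. By the rule, the latter are all in the set. The lowest probe lay at or under 0 in 77.8% of detected transcripts. The set thus held transcripts raised in all their probes and transcripts in which the difference was uneven between probes. The median gap between the highest and the lowest probe was 0.74 in the 79 transcripts and 4.96 in the 22.

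**Figure D3:**
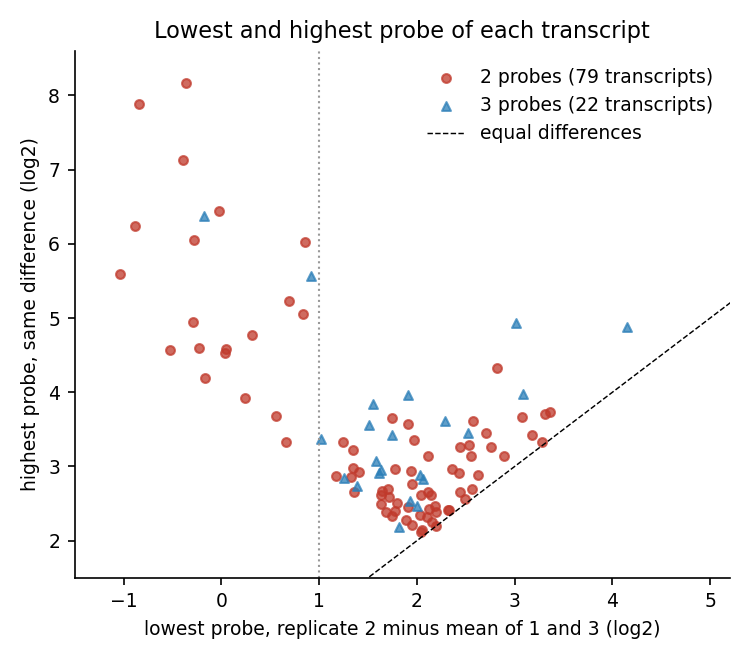
Replicate 2 minus the mean of replicates 1 and 3 (log2) for the lowest probe (horizontal axis) and the highest probe (vertical axis) of each of the 101 transcripts, with circles for transcripts of 2 probes and triangles for those of 3. The dashed line marks equal differences and the dotted line a lowest probe of 1; 22 transcripts lie at or left of the dotted line, and all 12 transcripts with a probe over 5 are among them.

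The transcript with the largest difference, GRMZM2G048377_T01, was raised in all its probes. It had 13.98 in replicate 2, against 9.999 in replicate 1 and 9.02 in replicate 3. The probes, at positions 276, 306 and 415 of the transcript, read intensities of 13333, 16093 and 19775 in replicate 2, against 827, 846 and 1532 in replicate 1 and 486, 352 and 812 in replicate 3. All probes thus showed the same order of the arrays. GRMZM2G085295_T01 followed with a difference of 4.10. It had 12.84 in replicate 2, against 8.86 in replicate 1 and 8.63 in replicate 3, and its probe differences were 3.01, 4.93 and 4.36. Neither transcript has a gene name in the tables used here.

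The third transcript, GRMZM2G171452_T01, showed the other kind. It had 13.56 in replicate 2, against 9.74 in replicate 1 and 9.57 in replicate 3, a difference of 3.90. Its probe at position 839 read 13920 in replicate 2, against 47.2 in replicate 1 and 49.9 in replicate 3. Its probe at position 415 read 10448 in replicate 2, against 15386 in replicate 1 and 11632 in replicate 3. These probes differed by 8.16 and -0.36, so the transcript entered the set through 1 of its 2 probes. The same pattern was found in GRMZM2G389070_T01, whose probes differed by 7.89 and -0.84, and in GRMZM2G043035_T01, whose probes differed by 7.13 and -0.39. In all, 12 transcripts had a probe more than 5 above the other arrays, with a maximum of 8.16. Each of them also had a probe at or under 1.

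Probes of this strength were not limited to replicate 2. Over all transcripts of the array, 63 probes were over 5 higher in replicate 2 than the mean of the other arrays, 16 were so in replicate 1 and 33 in replicate 3. For probes over 2 higher, the counts were 1073 in replicate 2, 122 in replicate 1 and 223 in replicate 3.

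The sign of the difference between replicates 1 and 3 was also counted within both kinds. Replicate 1 exceeded replicate 3 in 67 of the 79 transcripts raised in every probe, or 84.8%, and in 14 of the 22 others, or 63.6%. The median of replicate 1 minus replicate 3 was 0.25 in the 79 transcripts and 0.07 in the 22. This division was made after the values were seen and was not tested.

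The positions of the probes, counted in bases from the transcript start, were not used by the rule. Their median position was 724 bases, with quartiles of 355 and 1417, and over detected transcripts the median was 800 with quartiles of 334 and 1441. When detected transcripts were divided into 5 groups of equal size by the position of their last probe, the groups held, from the start of the transcript onwards, 23, 22, 17, 20 and 19 transcripts of the set. Within a transcript, the first probe had a larger difference than the last in 66 transcripts, or 65.3%, and this share was 65.5% over detected transcripts. The place of the probes and this order were thus close to those of detected transcripts in these counts, and the difference was not tested.

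The spots around the probes of the set were examined in the same way. For each of the 161 probes that lay more than 2 above the others, the median difference of the 8 nearest spots was computed. These medians had a median of 0.07 and a range of -0.66 to 1.92, and 2 of them were over 1. The highest were those around the probe of GRMZM2G389070_T01 at position 45, with 1.92, and around the probe of GRMZM2G134295_T04 at position 698, with 1.78. The probe of GRMZM5G872373_T03 at position 906 followed with 0.996. These 3 probes lie side by side on the array, and each had among its nearest spots a spot with a difference of 9.08. Single raised spots also lay beside other probes of the set, where the median was lower than around these 3 probes. Examples are GRMZM2G096491_T03 at position 512 (highest nearest spot 8.74, median 0.81) and GRMZM2G043035_T01 at position 36 (7.32, median 0.05). Another is GRMZM2G068959_T01 at position 1061 (5.14, median 0.80). After the median of the nearest spots was subtracted from each probe, 6 of the 29 named transcripts no longer exceeded 2. They were GRMZM5G872373_T03 with 1.81, GRMZM2G079381_T04 with 1.91, GRMZM2G146240_T02 with 1.92, GRMZM5G873286_T01 with 1.97, GRMZM2G559436_T01 with 1.98 and GRMZM2G136765_T01 with 1.99. In 3 strips of equal spot number across the width of the array lay 25.9%, 34.4% and 39.7% of the probes of the set, and 33.2%, 33.1% and 33.7% of the probes of detected transcripts. The part of position on the array in the differences was not tested.

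**Figure D4:**
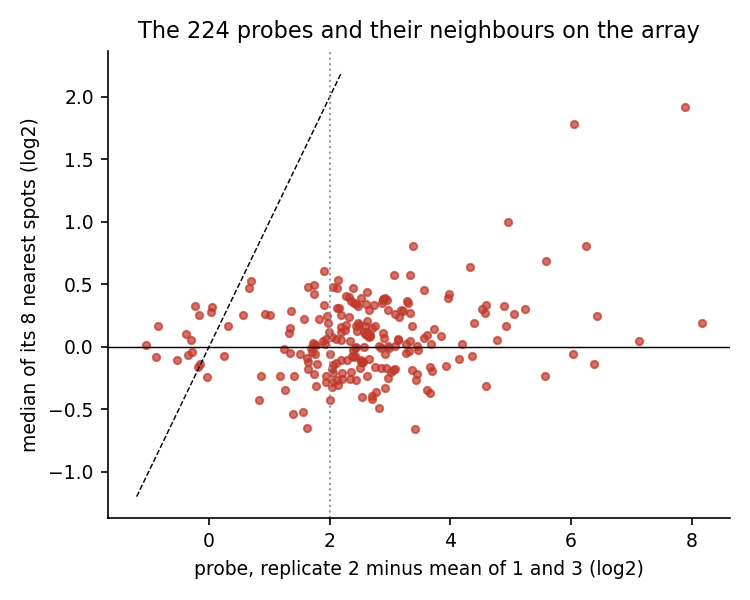
Replicate 2 minus the mean of replicates 1 and 3 (log2) for each of the 224 probes (horizontal axis) and the median of the same difference over its 8 nearest spots (vertical axis), with a dotted line at 2 and a dashed line where both are equal. Probes over 2 have neighbour medians of -0.66 to 1.92 around a median of 0.07.

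Few transcripts of the set had a named gene. A gene of the RefSeq annotation was matched for 40 of the 101 transcripts, or 39.6%, and for 62.1% of detected transcripts. The transcript was the only one predicted for its gene in 65 cases, or 64.4%, and this share was 43.9% over detected transcripts. A label other than a locus number, including names of clones and markers, was found for 17 transcripts of the set, or 16.8%, and for 23.6% of detected transcripts. Among the matched transcripts, 15 of 40 belonged to a RefSeq gene that joins at least 2 gene models of the array, which is 37.5%, and the share was 4.84% of detected transcripts that were matched. All 15 were raised by more than 1 in every probe, as were 29 of the 40 matched transcripts and 79 of all 101.

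These 15 transcripts came from 13 RefSeq genes, and each gene had another model on the array that was detected. The other models had 21 transcripts, of which 16 were detected. Their differences ranged from -0.27 to 0.85 with a median of 0.13. Under 0.5 in size were 15 of the 16, and 85.4% of all detected transcripts. By the rule, detected transcripts over 2 are members and thus not among the 16. Of the other-model transcripts that were not detected, 2 differed by more than 2. Detected pieces of one gene thus differed between the arrays to different extents, in part because of the rule. Differences within a probe are compared here, and levels are given for each model without ranking the models.

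**Figure D5:**
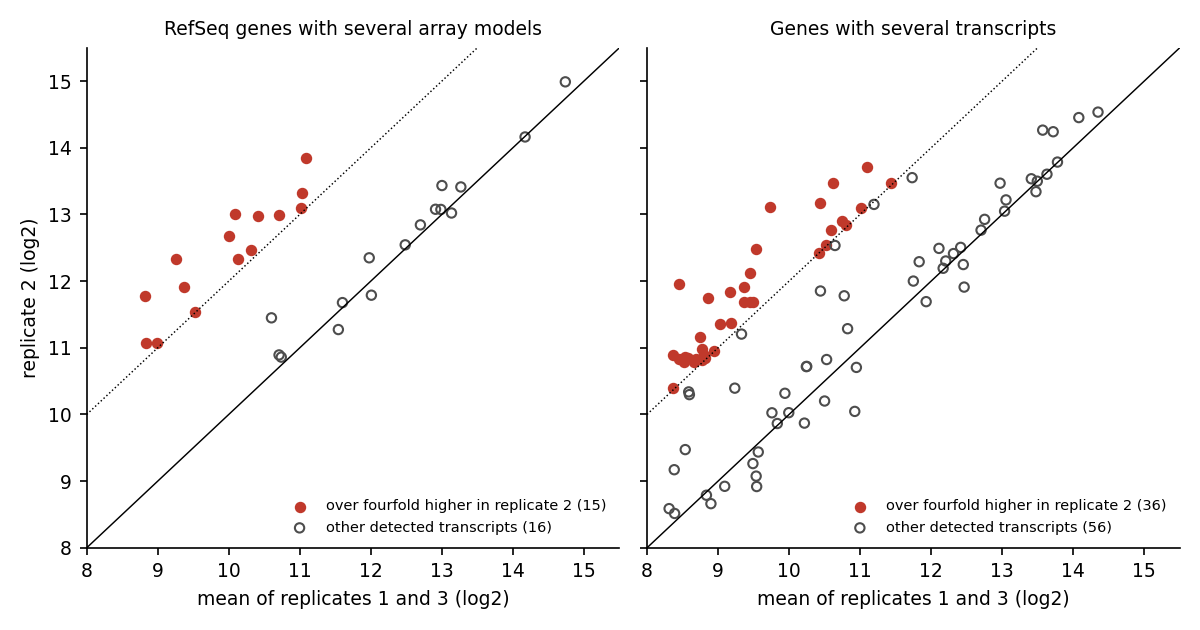
Level in replicate 2 (vertical axis) against the mean of replicates 1 and 3 (horizontal axis), both log2, for detected transcripts of the 13 RefSeq genes with several array models (left) and of the genes with several predicted transcripts (right). Filled points are the transcripts over 4-fold higher in replicate 2, open points the others; the solid line marks equal levels and the dotted line a difference of 2. On the left the 16 open points lie between -0.27 and 0.85 from the solid line.

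Tie-dyed2 encodes a callose synthase, an enzyme that makes the cell wall polymer callose, and maize mutants in it are known for leaf regions that retain sugars and starch. The array holds 3 gene models of this gene. GRMZM2G004087_T01 had 13.00 in replicate 2, against 10.22 in replicate 1 and 9.95 in replicate 3, a difference of 2.91. GRMZM2G553532_T01 had 12.99 in replicate 2, against 10.81 in replicate 1 and 10.60 in replicate 3, a difference of 2.29. GRMZM5G840560_T01 had 13.41 in replicate 2, against 13.20 in replicate 1 and 13.33 in replicate 3, a difference of 0.14. Both models in the set stood above the other arrays in every probe, and the third did not.

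Genes of RNA and methionine metabolism showed the same division. MMT1 encodes methionine S-methyltransferase, which makes S-methylmethionine, a transport form of sulfur. Its model GRMZM2G098031_T01 had 11.08 in replicate 2, against 9.002 in replicate 1 and 8.66 in replicate 3, with probes at positions 44, 216 and 349. The other model, GRMZM2G098039_T01, had 14.99 in replicate 2, against 14.70 in replicate 1 and 14.78 in replicate 3. The differences were 2.25 and 0.25, and only the first model was in the set. DCL4 is a Dicer-like ribonuclease that cuts double-stranded RNA into small interfering RNAs. Its model GRMZM2G024466_T01 had 11.77 in replicate 2, against 8.87 in replicate 1 and 8.78 in replicate 3. GRMZM2G160473_T01 had 11.68 in replicate 2, against 11.61 in replicate 1 and 11.60 in replicate 3. The differences were 2.95 and 0.08, and a further model of the gene, GRMZM2G050882_T01, was not detected and differed by 2.46.

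Motor protein and metabolic genes followed. Myosin 2 is a motor that moves cargo along actin filaments. GRMZM2G332687_T01 had 12.33 in replicate 2, against 9.46 in replicate 1 and 9.06 in replicate 3, a difference of 3.07. The transcripts of the other myosin 2 model, GRMZM2G034362_T01 and GRMZM2G034362_T02, differed by -0.11 and 0.43. For an aldolase-like gene, described as a ketose-bisphosphate aldolase class-II family protein, GRMZM2G074454_T01 had 12.98 in replicate 2, against 10.54 in replicate 1 and 10.28 in replicate 3. This difference was 2.57, and the detected transcripts of its other model, GRMZM2G431708_T01 and GRMZM2G431708_T02, differed by 0.09 and 0.17. A further transcript of that aldolase model, GRMZM2G431708_T03, was not detected and differed by -0.50.

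Among the joined genes known only by a locus number, GRMZM2G347583_T01 differed by 2.75 and its other model, GRMZM2G173030_T01, by 0.37. GRMZM5G824439_T01 differed by 2.67, and GRMZM5G883043_T01 by 0.06. GRMZM5G873286 was the only gene with both of its transcripts in the set. GRMZM5G873286_T02 differed by 2.55 and GRMZM5G873286_T01 by 2.08, and the other model of the RefSeq gene, GRMZM2G352883_T01, by -0.01. GRMZM2G559436_T01 had 13.32 in replicate 2, against 11.38 in replicate 1 and 10.67 in replicate 3. Its gene holds a model, GRMZM2G010657_T01, with 10.87 in replicate 2, against 6.39 in replicate 1 and 6.06 in replicate 3. This transcript passed the threshold in replicate 2 alone and was therefore not detected, although its difference was 4.65. A further transcript of that model, GRMZM2G010657_T02, was not detected either and differed by 0.53. The third model, GRMZM2G110406_T01, differed by 0.18.

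Other transcripts of the same gene model were compared next. For 34 genes of the set the array carries further transcripts, 80 in all, of which 56 were detected. Their median difference was 0.15 with a range of -0.88 to 1.95. It was under 0.5 in size in 40 of the 56, or 71.4%, against 85.4% of detected transcripts, and over 1 in 9, or 16.1%, against 1.89% of detected transcripts. Detected transcripts over 2 are members by the rule and are thus not among the 56, and 2 further transcripts differed by more than 2 but were not detected. Transcripts of a gene share exons, so they are not independent of each other.

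Nitrogen metabolism and water transport had 1 transcript each in the set. Nitrite reductase reduces nitrite to ammonium in plastids. GRMZM2G079381_T04 had 12.54 in replicate 2, against 10.77 in replicate 1 and 10.28 in replicate 3, and its probes differed by 1.82 to 2.18. GRMZM2G079381_T03 had 13.55 in replicate 2, against 11.95 in replicate 1 and 11.52 in replicate 3, a difference of 1.82 that lay below the limit of the rule. The other transcripts of the gene differed by 0.52 for GRMZM2G079381_T01, 0.69 for GRMZM2G079381_T02 and 0.37 for GRMZM2G079381_T05. All 5 transcripts were higher in replicate 2 than in the other arrays, to different extents.

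The aquaporin named PIP2-1 in RefSeq, a water channel of the plasma membrane, entered through its transcript GRMZM2G014914_T03. It had 11.69 in replicate 2, against 9.58 in replicate 1 and 9.31 in replicate 3, a difference of 2.25. GRMZM2G014914_T01 had 10.72 in replicate 2, against 10.28 in replicate 1 and 10.22 in replicate 3. GRMZM2G014914_T02 had 11.69 in replicate 2, against 11.97 in replicate 1 and 11.89 in replicate 3. These transcripts differed by 0.47 and -0.24, so 1 transcript of 3 carried the difference.

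Single transcripts came from genes of transcription and RNA processing. HOX3 is a homeobox protein, of a class that binds DNA. GRMZM2G314546_T02 had 12.90 in replicate 2, against 10.82 in replicate 1 and 10.66 in replicate 3, and the other transcript, GRMZM2G314546_T01, differed by 0.16. A C2H2-like zinc finger protein, of another DNA-binding class, was read by GRMZM2G177693_T02 with 10.89 in replicate 2, against 8.44 in replicate 1 and 8.29 in replicate 3. Its further transcripts GRMZM2G177693_T03, which was not detected, GRMZM2G177693_T04 and GRMZM2G177693_T01 differed by 2.18, 1.003 and 0.46. GRMZM2G455115_T01 is described as a homolog of cleavage and polyadenylation specificity factor 160, a subunit of the complex that processes messenger RNA ends. It had 11.61 in replicate 2, against 8.92 in replicate 1 and 8.27 in replicate 3.

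The 25 genes with the largest differences among those with a RefSeq match or a description were read by 27 transcripts, with differences of 2.08 to 3.90. Most of these genes carry a locus number only. Of those not described above, GRMZM2G121905_T01 had the largest difference, 3.51, and was raised in all 3 of its probes. It had 11.96 in replicate 2, against 8.45 in replicate 1 and 8.44 in replicate 3. Its probes lay close together, at positions 2269 to 2283. The other transcripts of its gene were not detected and differed by 1.73, 1.27 and -0.09. GRMZM2G068755_T02 differed by 2.94, GRMZM2G134295_T04 by 2.88, GRMZM2G392320_T02 by 2.66, GRMZM5G865576_T01 by 2.35 and GRMZM5G872373_T03 by 2.33. GRMZM2G081812_T01 differed by 2.32, GRMZM2G136765_T01 by 2.32, GRMZM2G146240_T02 by 2.27 and GRMZM2G022538_T05 by 2.26. Several of them were uneven between their 2 probes, which differed by 0.83 and 5.05 in GRMZM2G068755_T02, by -0.28 and 6.05 in GRMZM2G134295_T04 and by -0.29 and 4.95 in GRMZM5G872373_T03. The probes differed by 0.05 and 4.58 in GRMZM2G136765_T01, and by -1.04, the lowest value of the set, and 5.59 in GRMZM2G146240_T02.

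Lists drawn from gene names held few of these transcripts. The background for each list is the share of 0.272% of all detected transcripts. In the callose and glucan synthase list, which holds the single gene Tie-dyed2, 2 of 3 detected transcripts were in the set. It was 1 of 31 for nitrogen uptake and assimilation, 1 of 35 for aquaporins, 1 of 248 for transcription factors, 1 of 56 for chromatin, helicases and DNA repair, where DCL4 was found, and 1 of 77 for cytoskeleton and motor proteins. The median differences of these lists were 2.29 for callose and glucan synthases, 0.23 for nitrogen, 0.22 for aquaporins, -0.03 for transcription factors, -0.09 for chromatin and 0.03 for the cytoskeleton. Apart from the first, whose members are 2 of its 3 values, the lists lay within 0.3 of the median of all detected transcripts.

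No transcript of the set was found in the other lists. These held 51 detected transcripts of cellulose synthases and the cell wall, 28 of phenylpropanoid and flavonoid enzymes, 37 of ABC and other transporters and 40 of protein kinases. They also held 5 of ubiquitin ligases and the proteasome, 10 of vesicle traffic, 54 of ribosomal proteins, 18 of heat shock proteins and 67 of central carbon metabolism. The list of RNA splicing and processing had 0 detected transcripts. As lists matched only gene symbols and synonyms, they missed members known by a description. Among these are the polyadenylation factor GRMZM2G455115_T01 and the zinc finger protein GRMZM2G177693_T02. Median differences of these lists ran between -0.28 for ribosomal proteins and 0.23 for transporters. The highest differences were 1.64 among transporters, 1.60 in the cell wall list and 1.52 among protein kinases. At a share of 0.272% most lists of this size would hold no transcript of the set, so their absence is not a result about these pathways.

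Just inside the limit of the rule lay GRMZM2G425683_T01 with 2.02, GRMZM2G442057_T01 with 2.01 and GRMZM2G169372_T03 with 2.0. Just outside it lay GRMZM2G017229_T01 with 1.995, GRMZM2G112619_T01 with 1.99 and GRMZM2G102490_T01 with 1.98. GRMZM2G169372_T03 had 12.42 in replicate 2, against 10.45 in replicate 1 and 10.40 in replicate 3. GRMZM2G017229_T01 had 11.45 in replicate 2, against 9.69 in replicate 1 and 9.21 in replicate 3. The transcripts on either side of the limit thus had nearly the same values.

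The transcripts that stood out in the other arrays were not among those of the set. The largest of the 12 in replicate 3 was GRMZM2G139462_T03, with 8.56 in replicate 2, against 8.89 in replicate 1 and 12.05 in replicate 3. The largest of the 4 in replicate 1 was GRMZM2G091534_T01, with 10.99 in replicate 2, against 13.74 in replicate 1 and 10.65 in replicate 3.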

How the data were processed

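Root RNA of the 3 Urea+NBPT replicates was hybridized by the authors as Cy3-labelled cDNA to NimbleGen maize arrays of 139000 transcript probes and 1663 random control probes, for transcripts predicted from B73 (filtered set 5b). The deposited values are probe intensities on a linear scale that the authors extracted with NimbleScan. They appear quantile normalized already, over arrays not given in the sources used here, although the methods call such files raw, and the labels name RMA without a version. Intensities were log2 transformed and averaged per transcript with Python 3.11.15, pandas 2.3.3 and numpy 2.4.6. Other background corrections and normalizations used limma 3.58.1 in R 4.3.3. The selection code was also run on simulated data, with the same shift in every probe of transcripts well above the threshold. Weak transcripts and those uneven between probes were not covered by it. The members and lists were chosen with earlier results of these data known. Named were the 25 annotated genes with the largest differences, list members and the transcripts nearest to the limit, and all others named were chosen after their values were seen. Counts of the 29 named transcripts cover the 25 genes and the list members, without the transcripts nearest to the limit. Lists matched gene symbols and synonyms of RefSeq, as that table holds no descriptions. It follows another assembly (Zm-B73-REFERENCE-NAM-5.0), so only names and joined models were taken from it. Descriptions from the study's supplement are those of Arabidopsis homologs. The number of arrays limits the precision. Alternatives covered detection, probe summary, background, normalization, the limit and leaving out arrays. No sequences were used here.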

Additional observations from a re-analysis of the deposited data

How the results depend on the processing

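The number of transcripts depended on the limits of the rule. It was 45 with the threshold at the 99th percentile of random probes, 262 with a difference over 1.5, 45 with a difference over 2.5 and 42 where every probe had to lie more than 2 above. With the higher threshold the median probe position was 906 in the set and 872 over detected transcripts, and the cause was not tested. Quantile normalization and scaling to one median kept all 101, which says little, as the deposited values appear quantile normalized already. Under the other planned settings the count stayed between 94 and 133, and 94 to 101 of the 101 transcripts were shared with each of these settings that kept all arrays. Without replicate 1 or replicate 3 the count was 125 and 117, with 98 and 83 shared, the median difference 2.46 and 2.44, and the median probe position 730 and 714. Leaving out replicate 2 was not run, as the rule needs it. Settings added after seeing the data were subtracting the difference of the 8 nearest spots, which gave 100 transcripts, 83 of them shared, and leaving out probes more than 5 above, which gave 92, 89 of them shared. In this last setting 8 of the 101 transcripts no longer lay above 0, with -1.04 as the lowest, and 5 of them are named ones: GRMZM2G146240_T02 (-1.04), GRMZM2G389070_T01 (-0.84), GRMZM2G043035_T01 (-0.39), GRMZM2G171452_T01 (-0.36) and GRMZM2G134295_T04 (-0.28). Under the settings that kept all probes, the 29 named transcripts had differences of 1.77 to 3.99. Median polish over few probes gave 1 transcript of the set a difference of -0.16. Detection rests on 1 threshold per array, and low signals limit the values: 47 of the 101 lay in the weakest of 5 equal groups of detected transcripts. No paired analysis was possible because all arrays belong to a single group.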
